A study of Mus musculus with 9 samples.

Results

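Mitochondrial ribosomal proteins are read on this array by 76 genes whose symbols begin with Mrpl (large subunit, 47 genes) or Mrps (small subunit, 29 genes) followed by a digit, of 18193 genes with a symbol of their own. They were chosen by symbol alone, and each gene was represented by the brightest of its single-symbol probe sets, taken as the highest mean over the 9 arrays. RNA came from the intestinal epithelium of newborn mice (postnatal day 0), released with EDTA from small intestine and proximal colon. Rescue mice (3 arrays) were Tfr1 IEC-KO and also carried ROSA26 Tfr1R654A/+, an allele of the transferrin receptor with an arginine-to-alanine change. Knockout mice (3 arrays) were Tfr1 IEC-KO, that is, without Tfr1 in intestinal epithelial cells, and Control mice (3 arrays) were Tfr1fl/fl. The labels name neither a Cre driver nor a sorting step, and the number of pups behind an array is not stated, so p-values measure only the spread between these arrays.

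Mitochondria carry their own ribosome, which makes the few inner-membrane proteins encoded by mitochondrial DNA. All of its protein subunits are encoded in the nucleus, made in the cytosol and imported. Some descend from bacterial ribosomal proteins and others were added during the evolution of mitochondria. Tfr1 takes up transferrin-bound iron, and the human counterparts of Mrps16, Mrps18c and Mrps25, in the small subunit, hold iron-sulfur clusters.

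The starts of 4 of the genes are shown because the results below turn on them: Mrpl23 had the largest fall in Knockout, Mrpl48 and Mrpl27 had the smallest p-values among genes that fell and hold the ETS core motif, and Mrps6 was the one gene that rose. Each window runs from 250 bases before to 50 bases after a listed start (RefSeq, GRCm38.p6), written 5′ to 3′ along the gene. Capitals mark the ETS core, CCGGAAG or its reverse complement, a motif of promoters of many genes for mitochondrial proteins. Mrpl23 lies at chr7:142532782-142533081 on the plus strand, inside the annotated gene span, which begins at 142532467. Mrpl48 lies at chr7:100583081-100583380 on the minus strand and is the first window found with the motif among 4 listed starts. It too lies inside the annotated span, which on this strand begins at 100608301. Mrpl27 lies at chr11:94653541-94653840 and Mrps6 at chr16:92058086-92058385, both on the plus strand.
Mrpl23: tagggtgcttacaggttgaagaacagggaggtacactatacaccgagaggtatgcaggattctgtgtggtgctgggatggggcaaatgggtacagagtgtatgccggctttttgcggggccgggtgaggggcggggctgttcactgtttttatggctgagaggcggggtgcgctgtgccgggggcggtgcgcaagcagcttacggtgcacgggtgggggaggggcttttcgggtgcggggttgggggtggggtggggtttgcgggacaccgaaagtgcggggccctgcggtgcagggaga
Mrpl48: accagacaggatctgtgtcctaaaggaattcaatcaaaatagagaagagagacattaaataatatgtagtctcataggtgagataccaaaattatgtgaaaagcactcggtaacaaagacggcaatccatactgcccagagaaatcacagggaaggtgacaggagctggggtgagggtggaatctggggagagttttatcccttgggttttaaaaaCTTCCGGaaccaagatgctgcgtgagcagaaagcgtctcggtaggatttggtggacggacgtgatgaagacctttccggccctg
Mrpl27: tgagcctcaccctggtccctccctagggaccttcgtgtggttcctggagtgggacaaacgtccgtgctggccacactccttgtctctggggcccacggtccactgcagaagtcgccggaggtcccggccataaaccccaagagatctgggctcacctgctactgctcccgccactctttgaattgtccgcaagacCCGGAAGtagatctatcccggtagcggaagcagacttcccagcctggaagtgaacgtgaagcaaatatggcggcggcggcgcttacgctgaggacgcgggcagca
Mrps6: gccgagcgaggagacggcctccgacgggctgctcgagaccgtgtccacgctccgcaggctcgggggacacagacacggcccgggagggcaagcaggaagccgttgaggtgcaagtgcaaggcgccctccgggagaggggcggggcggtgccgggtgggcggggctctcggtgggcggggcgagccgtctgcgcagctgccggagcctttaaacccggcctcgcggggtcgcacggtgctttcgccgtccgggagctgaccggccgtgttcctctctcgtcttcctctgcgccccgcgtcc

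The ETS core was found in the windows of 25 of the 67 genes with a RefSeq start (37.3%), against 9.93% of 27025 genes in the table and 20.2% of array genes brighter than the dimmest 40%. A gene with several listed starts counted once if any of its windows held the motif. It was in 7 of 15 windows of genes that fell in Knockout (46.7%) and in 18 of the 52 others (34.6%). The YY1 motif AAGATGGCG was in 8 windows (11.9%, against 1.64% of all genes and 3.72% of those brighter array genes) and the NRF1 consensus palindrome in 3 (4.48%, against 1.07% and 2.29%). The E-box CACGTG was in 5 (7.46%, against 8.09% and 12.1%), and the ERR half-site TCAAGGTCA in 0 (against 0.466% and 0.327%). Both strands were searched, and the ETS core and the YY1 motif can share the letters AAG. Median GC content was 58.0% in these windows and 58.7% over array genes. A match describes letters in a window and not a bound site.

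Some facts of the 9 arrays touch these results. Of the 3 Tfrc probe sets (Tfrc is the gene of Tfr1), 2 lay above all other arrays in every Rescue array. The brightest set read 10.91, 10.22 and 11.11 in Rescue, 10.76, 11.16 and 9.07 in Knockout and 10.21, 10.78 and 9.88 in Control (log2 RMA values). The position of these sets relative to the deleted exons was not analysed here, so they check neither the deletion nor the R654A allele. Xist read 6.45 to 6.83 in Rescue, 12.02 to 12.75 in Knockout and 12.10 to 12.31 in Control. The Y-linked Eif2s3y read 9.36 to 9.70 in Rescue, 2.34 to 2.82 in Knockout and 2.69 to 2.88 in Control. Sex and genotype therefore cannot be told apart in either comparison with Rescue. The median SD of these 76 genes was 0.17 in Rescue, 0.27 in Knockout and 0.12 in Control. In bulk samples, fewer cells of a type and less RNA per cell cannot be told apart.

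Without Tfr1 in the epithelium, most genes of the mitochondrial ribosome lay below Control by small amounts, and 17 of 76 passed the test as lower (22.4%, against 8.77% of all genes tested). One gene, Mrps6, was higher (1.32%, against 5.29%). The tests were limma's, with adjusted p under 0.05 over all 18193 genes. All genes include dim ones, whereas all 76 genes were kept when the dimmest genes were left out of the fit. In that fit 18 of the 76 were lower (23.7%, against 14.7% of the genes kept), a smaller excess. The median of Knockout minus Control was -0.41 on the log2 scale, against -0.04 over all genes, and single genes ranged from -1.08 to 0.63. The sign was negative for 74 of the 76 genes (97.4%, against 56.1% of all genes). All 3 Knockout arrays lay below all 3 Control arrays for 42 genes (55.3%, against 19.7%) and above them for 1 (against 12.7%). The share past the test, and its distance from the share of all genes, changed with the arrays used. It was 6.58%, 5.26% and 5.26% without Control replicate 1, 2 or 3 (5, 4 and 4 genes), against 3.83%, 4.18% and 3.12% of all genes in the same fits. Without Knockout replicate 1 it was 9.21% (7 genes, against 5.35%), without replicate 2 it was 34.2% (26 genes, against 7.04%) and without replicate 3 it was 21.1% (16 genes, against 14.7%). Leaving out Rescue replicate 2, whose spread enters the fit, gave 11.8% (9 genes, against 6.86%). Array weights gave 25% (19 genes, against 19.9%) and centring each array on its median 46.1% (35 genes, against 10.7%). Quantile normalization gave 13.2% (10 genes, against 7.3%), and a fit of these groups alone 10.5% (8 genes, against 5.8%). The share of these genes thus lay closer to that of all genes in each of these fits except those without Knockout replicate 2 and with median centring. In percentage points it lay closest in the fits without a Control array, where most of the excess was lost.

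**Figure D1:**
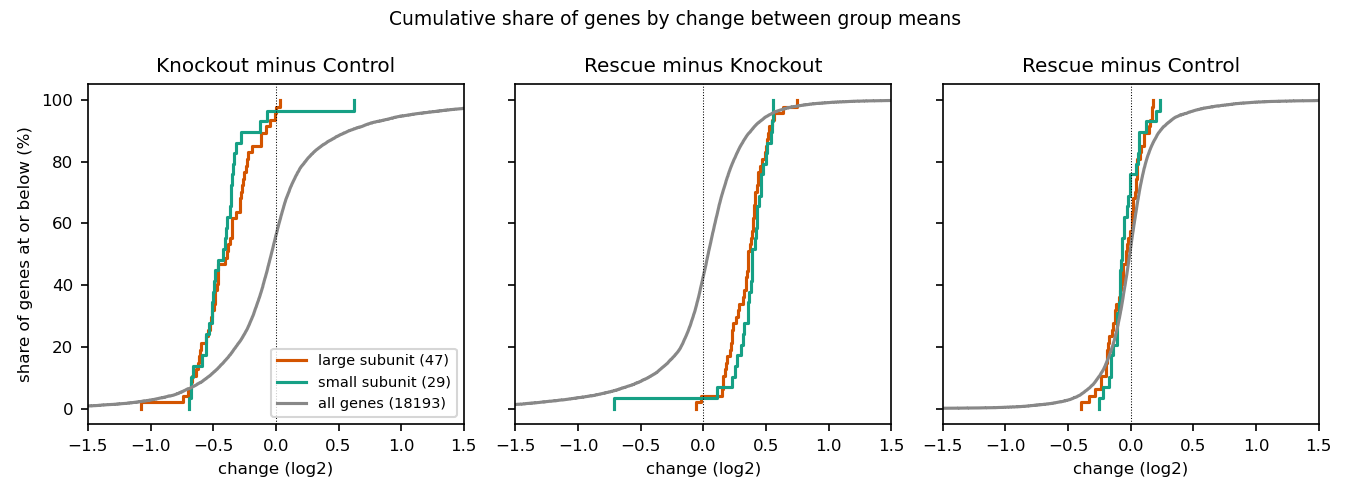
Cumulative share of genes (%) against the change between group means (log2), for large-subunit genes, small-subunit genes and all genes, in each of the 3 comparisons. For Knockout minus Control the curves of both subunits lie to the left of the curve of all genes, with medians of -0.39 (large), -0.43 (small) and -0.04 (all genes).

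Among large-subunit genes, 12 of 47 fell (25.5%). Mrpl23, the counterpart of a bacterial protein at the exit of the peptide tunnel, read 9.62, 9.57 and 9.38 in Knockout and 10.60, 10.54 and 10.67 in Control. All Knockout arrays were lower than all Control arrays, and the fall of 1.08 ± 0.13 (log2, SE, n = 3 each) was 2.12-fold (limma adjusted p = 0.0018). Mrpl2, whose bacterial counterpart lies close to the peptidyl transferase centre, read 9.81, 9.96 and 9.63 in Knockout and 10.43, 10.47 and 10.41 in Control. It also showed no overlap and fell by 0.64 ± 0.11 (limma adjusted p = 0.0071). These were the 2 genes that passed the test under all 20 alternatives of this comparison, and with Mrpl48 they passed in all 9 fits that left out 1 array. The other calls in this comparison were kept in 1 to 8 of those 9 fits.

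Mrpl28, another protein of bacterial descent, read 9.64, 9.63 and 9.53 in Knockout and 10.19, 10.04 and 10.08 in Control. The groups did not overlap, its Knockout arrays were the closest together of all 76 genes (SD 0.06), and it fell by 0.51 ± 0.10 (limma adjusted p = 0.011). Of its other probe sets, one changed by -0.45 and one by -0.09. Mrpl16 and Mrpl27, both counterparts of bacterial proteins near the peptidyl transferase centre, fell by 0.67 and 0.46. The second probe set of Mrpl27 changed by -0.67. Mrpl34 fell by 0.70, but its second probe set changed by only -0.19. Together, 6 of 29 large-subunit genes of bacterial descent fell, with a median of -0.39 over the 29.

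Of the 18 large-subunit genes found only in mitochondrial ribosomes, 6 fell, and the median over the 18 was -0.40. Mrpl48 read 8.77, 9.03 and 8.76 in Knockout and 9.75, 9.53 and 9.52 in Control. Its groups did not overlap and it fell by 0.75 ± 0.13, 1.68-fold (limma adjusted p = 0.0089), with a change of -0.89 at its second probe set. Mrpl41 fell by 0.68, Mrpl58, which in human cells is also a peptidyl-tRNA hydrolase, by 0.61, Mrpl46 and Mrpl57 by 0.46 each, and Mrpl54 by 0.32. The other large-subunit genes did not pass at their brightest probe sets. Mrpl15 changed by -0.52 there (limma adjusted p = 0.12), and its 8 sets differed. One changed by -0.88 and one by -0.84, and both passed (limma adjusted p = 0.0085 and 0.0030, over single-symbol probe sets). Its second-brightest set changed by -0.59 and did not pass (limma adjusted p = 0.10). Mrpl33, Mrpl40 and Mrpl21 had changes closest to 0, at 0.03, -0.00 and -0.01. Of the brightest and dimmest genes, Mrpl51 (-0.41, adjusted p = 0.23), Mrpl1 (-0.54, 0.064) and Mrpl38 (-0.49, 0.26) did not pass. The second probe set of Mrpl1, of similar brightness, changed by only -0.11.

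Among small-subunit genes, 5 of 29 fell (17.2%). Mrps34, a protein without a bacterial counterpart, read 9.93, 10.35 and 9.91 in Knockout and 10.67, 10.83 and 10.73 in Control. The groups did not overlap and it fell by 0.68 ± 0.14, 1.60-fold (limma adjusted p = 0.014). Mrps11, whose bacterial counterpart sits on the platform of the subunit, read 7.27, 7.40 and 6.93 in Knockout and 7.91, 7.91 and 7.81 in Control. It fell by 0.68 with no overlap (limma adjusted p = 0.018). Mrps36 and Mrps21 fell by 0.59 and 0.36. Human Mrps36 is now known as a part of the oxoglutarate dehydrogenase complex rather than of the ribosome. Mrps31 had a change of -0.70 that did not pass (limma adjusted p = 0.069): it read 8.06, 8.87 and 8.22 in Knockout and 8.87, 9.36 and 9.02 in Control. The dimmest of these genes, Mrps27 (-0.41, adjusted p = 0.30) and Mrps5 (-0.34, 0.40), did not pass.

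Of the 3 iron-sulfur genes listed above, which may not be all of them, 1 passed the test, Mrps16. It read 9.32, 9.80 and 9.53 in Knockout and 10.06, 10.15 and 10.12 in Control, with no overlap, and fell by 0.56 ± 0.14 (limma adjusted p = 0.034). This call was lost without any one Control array, Knockout replicate 1 or Rescue replicate 2 (limma adjusted p up to 0.11), after quantile normalization, in a fit of these groups alone, and with the fibroblast covariate (0.18). Mrps25 changed by -0.48 (limma adjusted p = 0.14) and Mrps18c by -0.28 (0.10), and neither passed. The paralogs of Mrps18c gave -0.40 (Mrps18a, adjusted p = 0.084) and -0.13 (Mrps18b, 0.68). Mrps12 (-0.46), whose bacterial counterpart guards decoding accuracy, and the stalk proteins Mrpl12 (-0.47) and Mrpl11 (-0.35) did not pass. Mrps30 (-0.39), which structures place in the large subunit despite its name, did not pass either.

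Mrps6 was the exception in direction. It read 9.17, 9.56 and 9.54 in Knockout and 8.78, 8.87 and 8.74 in Control. Every Knockout array lay above every Control array, and it rose by 0.63 ± 0.18, 1.54-fold (limma adjusted p = 0.048), with 0.64 at its second probe set. Annotation places Slc5a3, the gene of the sodium/myo-inositol cotransporter, at chr16:92058322-92087473, across the start of Mrps6 and part of its span. Slc5a3 read 9.42, 8.97 and 8.93 in Knockout and 7.60, 7.97 and 7.44 in Control. It rose by 1.43 ± 0.19, 2.70-fold (limma adjusted p = 0.0031), and whether the Mrps6 probe sets also read its transcripts was not tested. The Mrps6 call was lost when any one Control array, Knockout replicate 2 or 3, or Rescue replicate 2 was left out.

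**Figure D2:**
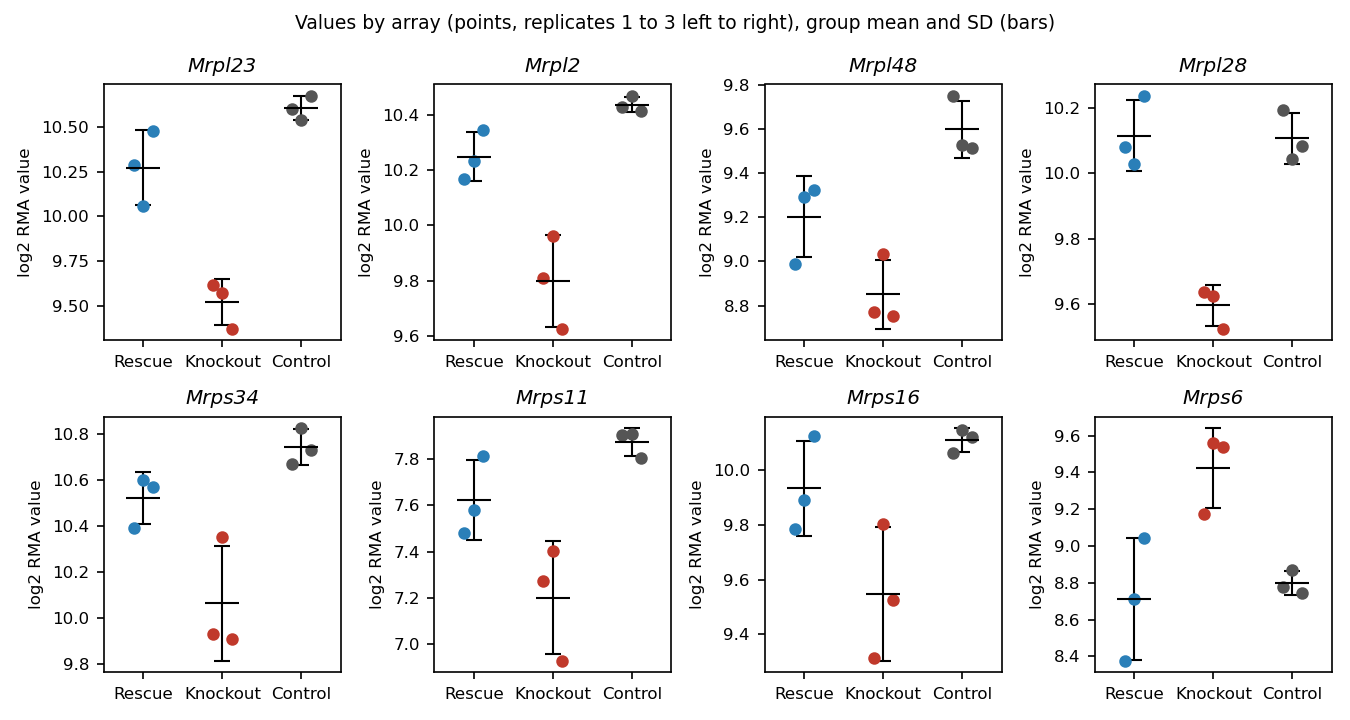
Values of 8 genes by array (log2 RMA value on the vertical axis) in Rescue, Knockout and Control, with each point 1 array and the bars showing the group mean and SD (n = 3). In the first 7 panels every Knockout array lies below every Control array, and in the Mrps6 panel every Knockout array lies above, from 9.17 to 9.56 against 8.74 to 8.87.

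No test was run of the difference between the subunits. The median over large-subunit genes minus the median over small-subunit genes was 0.03 for Knockout minus Control, with an SD of 0.04 over the Knockout arrays. The difference was 0.082 without Control replicate 3, 0.080 without Knockout replicate 1 and 0.077 without Knockout replicate 2, each larger than that SD. Symbols set the subunits here. An alternative counted Mrps18a and Mrps30 in the large subunit, and the medians were then -0.39 (large) and -0.46 (small), so the difference also depends on where these genes are placed.

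The Knockout arrays differed among themselves more than the other groups did. Measured as the median over the 76 genes of the value minus the Control mean, they stood at -0.48, -0.15 and -0.60 (replicates 1 to 3). Rescue arrays stood at -0.17, -0.06 and 0.07, and Control arrays at -0.07, 0.12 and -0.05. Knockout replicate 3 was the lowest of all 9 arrays for 48 genes (63.2%, against 17.1% of all genes), replicate 1 for 27 (35.5%, against 24.3%) and replicate 2 for 0 (against 15.2%). Replicate 2 lay above replicate 1 for 72 of the 76 genes, and above replicate 3 for 72. Below every Control array lay 66 genes in Knockout replicate 1 (86.8%, against 46.7% of all genes), 43 in replicate 2 (56.6%, against 43.8%) and 72 in replicate 3 (94.7%, against 37.4%). Mrpl3, Mrpl11 and Mrpl13 had the largest Knockout SD (0.60, 0.57 and 0.56). Mrpl11 read 9.03, 9.06 and 8.05 in Knockout and 9.02, 9.17 and 9.01 in Control, so 1 array alone was low. Mrpl3 read 8.87, 9.01 and 7.92 in Knockout and 8.75, 9.13 and 8.80 in Control, with the same array low.

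Markers of other cells moved with the Knockout arrays. Of 14 fibroblast genes, 3 passed the test and were higher in Knockout (21.4%, against 5.29% of all genes), and 12 were higher at an unadjusted p under 0.05 (85.7%, against 12.7%). Their median above the Control mean was 3.66, 2.91 and 0.30 in Knockout replicates 1 to 3, and 0.61, 0.49 and 0.24 in Rescue. Smooth muscle genes gave 3.71, 2.30 and 0.16 in Knockout and neuron and glia genes 2.36, 0.88 and 0.18. The 8 epithelial genes gave 0.40, 0.21 and 0.44, with single changes from -0.74 to 1.65. Of these 8, 4 passed as higher (50%, against 5.29% of all genes) and 1 as lower (12.5%, against 8.77%). Among the Knockout arrays, replicate 3 had both the lowest fibroblast and muscle values and the lowest median of the mitoribosomal genes. Leaving out replicates 1 and 2, an alternative added after seeing the data, gave 33 of the 76 genes as lower (43.4%, against 8.26% of all genes). In that fit the lone Knockout array is assumed to vary like the Rescue and Control arrays, and it is the array with the lowest mitoribosomal median, so the count supports nothing by itself. Cell-cycle genes stood at 0.83, 0.80 and -0.49 in Knockout and cytosolic ribosomal protein genes at 0.26, 0.16 and -0.67, both lowest in replicate 3, and their part in the result was not tested.

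**Figure D3:**
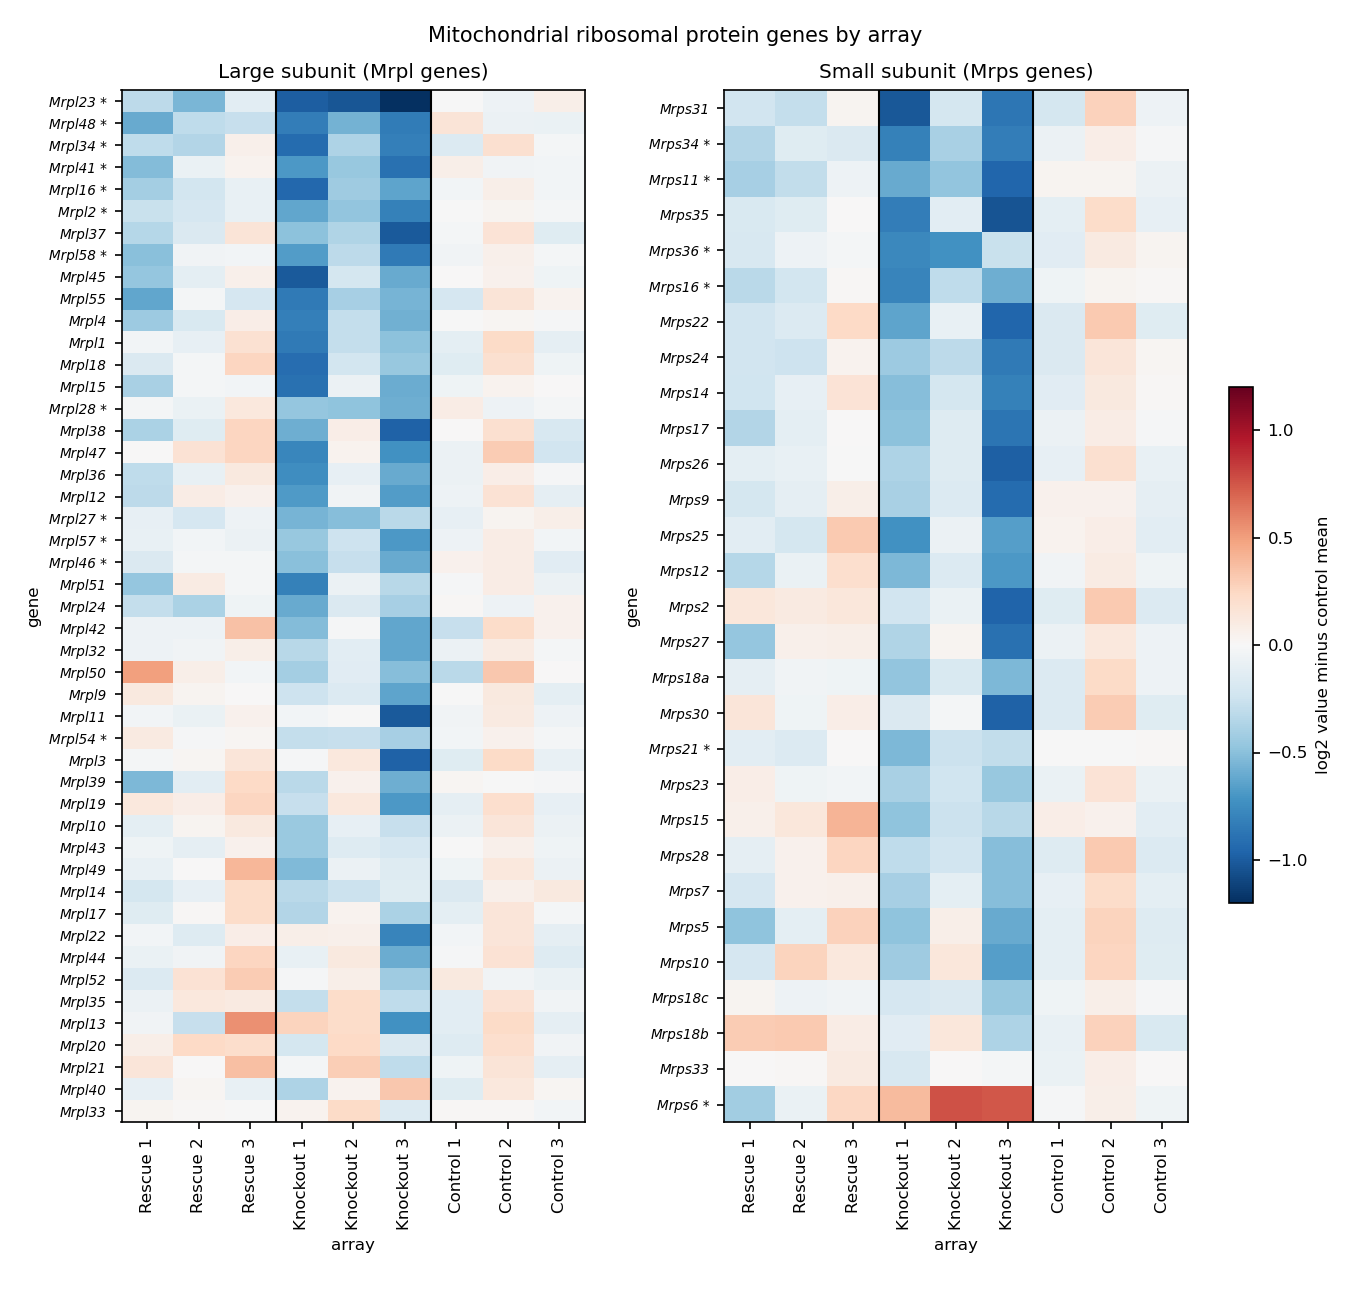
Each of the 76 genes (rows, large and small subunit apart, an asterisk for a gene past the test in Knockout minus Control) in each of the 9 arrays (columns, Rescue, Knockout, Control), as the log2 value minus the Control mean. The Knockout columns are low for most genes, least so in replicate 2, whose median is -0.15 against -0.48 and -0.60.

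Other lists of mitochondrial translation also held genes that fell in Knockout, where 8.77% of all genes did. None of the lists below held a gene that passed as higher. The share of 8.77% counts dim genes too, and was 14.7% with the dimmest genes left out of the fit. Counts of these lists in that fit are not given. Of 4 mitoribosomal proteins under other symbols, 2 fell (50%): Gadd45gip1, which is also called CRIF1, by 0.82 (limma adjusted p = 0.011), and Dap3 by 0.52 (limma adjusted p = 0.046). Of 13 translation factors, 4 fell (30.8%), with a median of -0.52 over the 13. These were Lrpprc, which stabilises mitochondrial mRNAs (0.91), the release factor Mtrf1l (0.66), the recycling factor Mrrf (0.65) and the formyltransferase Mtfmt (0.64). Of 24 assembly factors, 4 fell (16.7%), with a median of -0.36. Nsun4, a methyltransferase that acts on the small-subunit rRNA and in assembly, read 8.04, 8.98 and 9.41 in Knockout and 10.60, 10.30 and 10.66 in Control. It fell by 1.71 ± 0.35, 3.27-fold (limma adjusted p = 0.015), and its lowest array was Knockout replicate 1. Mrm2, an rRNA methyltransferase, fell by 0.72, Malsu1 by 0.50 and Rbfa by 0.43.

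Counts in lists further from the ribosome are set against the same 8.77% of all genes, which again counts dim genes too. Of 16 mitochondrial tRNA synthetases, 3 fell (18.8%, median -0.37), among them Nars2 by 1.03. Of 16 genes of mitochondrial DNA replication and transcription, 2 fell (12.5%, near that background, median -0.32): the RNA polymerase Polrmt by 0.79, and the nuclease Mgme1, which was dim in Knockout, at least 1.58-fold. Of 25 import and chaperone genes, 3 fell (12%, also near it, median -0.38), namely Timm17b, Pmpcb and the dim Timm9, the last at least 2.01-fold. Of 82 nuclear subunits of the respiratory chain, 17 fell (20.7%), with a median of -0.25. Among 9 transcriptional regulators, 1 fell (11.1%, also near that background), the median was 0.17 and 5 of the 9 changes were positive. The gene that fell was Esrra, a nuclear receptor that activates mitochondrial genes, by 0.76 (limma adjusted p = 0.026). Myc (0.93, adjusted p = 0.14) and Nrf1 (0.17, 0.29) did not pass. Of 43 cytosolic ribosomal protein genes, 0 passed in limma's test and 1 was lower at an unadjusted p under 0.05 (median -0.07).

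**Figure D4:**
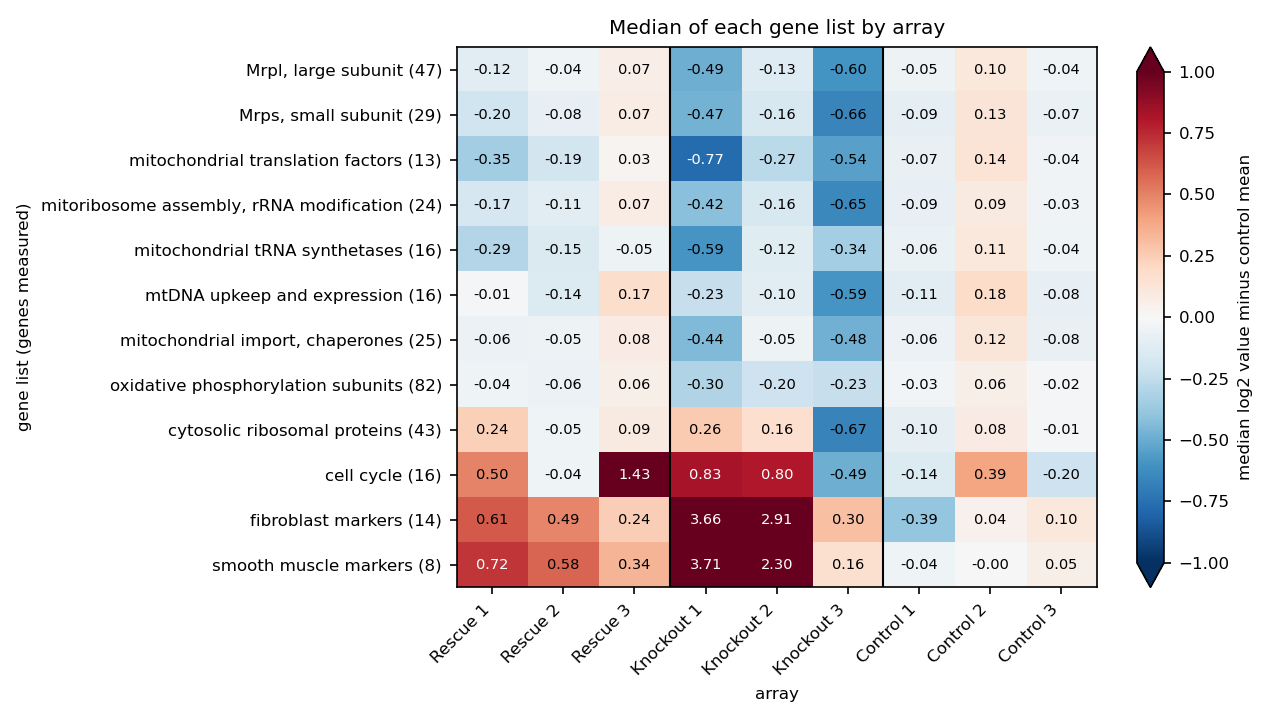
Median over each gene list (rows, number of genes measured in brackets) of the log2 value minus the Control mean, in each of the 9 arrays (columns, Rescue, Knockout, Control). The mitoribosomal lists are lowest in Knockout replicates 1 and 3, while the fibroblast row reaches 3.66 and 2.91 in Knockout replicates 1 and 2 and 0.30 in replicate 3.

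With the R654A allele added to the knockout, the genes were mostly above Knockout, and 2 of 76 passed the test as higher (2.63%, against 1.23% of all genes). None of the 76 passed as lower in limma's test (against 1.08%), with 1 at an unadjusted p under 0.05 (against 8.91%). With the dimmest genes left out of the fit, 2 of the 76 were again higher, against 2.19% of the genes kept. The median of Rescue minus Knockout was 0.38, against 0.04 over all genes, with 0.36 in the large and 0.39 in the small subunit. At an unadjusted p under 0.05, 38 were higher (50%, against 9.98% of all genes). All Rescue arrays lay above all Knockout arrays for 28 genes (36.8%, against 10.6%), and below them for Mrps6 alone (against 7.5%). Both Rescue and Knockout arrays entered one fit with Control, and Rescue minus Knockout shares the Knockout arrays with the comparison above.

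Mrpl23 read 10.29, 10.06 and 10.47 in Rescue and 9.62, 9.57 and 9.38 in Knockout. The groups did not overlap, and it was higher by 0.75 ± 0.13, 1.68-fold (limma adjusted p = 0.025). Mrpl28 read 10.08, 10.03 and 10.24 in Rescue and 9.64, 9.63 and 9.53 in Knockout, also without overlap, and was higher by 0.52 ± 0.10 (limma adjusted p = 0.035). Near the threshold without passing were Mrps15 (0.56, adjusted p = 0.056), Mrpl2 (0.45, 0.072), Mrpl54 (0.36, 0.072) and Mrps6 (-0.71, 0.080). The Mrpl15 set with the change of -0.84 above was higher in Rescue by 0.61 (limma adjusted p = 0.034, over single-symbol probe sets). The brightest Mrpl15 set did not pass (0.38, limma adjusted p = 0.35). Mrps6 read 8.38, 8.71 and 9.04 in Rescue and 9.17, 9.56 and 9.54 in Knockout, while Slc5a3, the gene across its start, read 7.79, 7.85 and 8.21 in Rescue and 9.42, 8.97 and 8.93 in Knockout. Slc5a3 was lower in Rescue by 1.16 ± 0.19 on the log2 scale, 2.23-fold (limma adjusted p = 0.025). The count of 2 was 0 without any one Control array or Rescue replicate 1 or 3. It was 1 without Knockout replicate 1 or 2 or Rescue replicate 2 (against 0.401% to 0.583% of all genes). Without Knockout replicate 3 it was 7 of 76, in a fit where the share of all genes was also larger, at 6.61%. With Knockout replicate 3 as the lone Knockout array the median change was 0.59, under the same limit as above. In the other lists, 1 of 16 genes of mitochondrial DNA replication and transcription passed as higher in Rescue, Mgme1, which was dim in Knockout (at least 1.51-fold, limma adjusted p = 0.043). Of 82 respiratory chain subunits 1 passed as higher, the complex I subunit Ndufs8 (0.54, limma adjusted p = 0.0496). Of all genes, 1.23% passed as higher in this comparison, so 1 of 82 is near that background, and 1 of 16 is a single gene.

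Between Rescue and Control, 0 of the 76 genes passed limma's test in either direction (against 0.0715% of all genes lower and 0.055% higher), with 2 lower at an unadjusted p under 0.05 (against 4.37%), Mrpl23 and Mrpl48, and 0 higher (against 2.25%). The median of Rescue minus Control was -0.06, and single genes ranged from -0.40 to 0.24. All Rescue arrays lay below all Control arrays for 5 genes (6.58%, against 9.9%), which were Mrpl16, Mrpl2, Mrpl23, Mrpl48 and Mrps34, and above them for 0 (against 6.74%). Mrpl48 read 8.99, 9.29 and 9.32 in Rescue and 9.75, 9.53 and 9.52 in Control, a change of -0.40 ± 0.13 (limma adjusted p = 0.51). Mrpl23 read 10.29, 10.06 and 10.47 in Rescue and 10.60, 10.54 and 10.67 in Control, a change of -0.33 ± 0.13 (limma adjusted p = 0.62). Both sets of values show Rescue arrays lower without passing, and a p that misses the threshold does not show that the groups are alike. By array, 46, 31 and 6 of the 76 genes lay below every Control array in Rescue replicates 1 to 3. These shares were 60.5%, 40.8% and 7.89%, against 34.5%, 29.9% and 32.3% of all genes. Cell-cycle genes stood at 0.50, -0.04 and 1.43 in the same arrays.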

How the data were processed

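RNA of 9 samples, 3 each of Rescue, Knockout and Control, was measured on Affymetrix mouse arrays. The deposited values are log2 values, 1 per probe set and array, and the submitters' processing notes name RMA and Partek 6.5. The role of either tool, the handling of background and the filtering of probes were not given in the sources used here. Column medians ran from 5.93 to 6.00, and 0 of 36 array pairs were identical. Precision is set by the number of arrays. Standard errors of a change had a median of 0.147 over all genes and 0.166 over these 76.

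Of 45101 probe sets, 34958 carried 1 symbol in the platform annotation, 932 several and 9211 none. Each of 18193 genes was given its brightest single-symbol probe set, and the 76 genes had 156 such sets. Values were used as deposited. All 9 arrays entered 1 limma 3.58.1 fit (lmFit, eBayes) with a mean for each group, in R 4.3.3 with data.table version 1.17.8. Tests were two-sided with Benjamini-Hochberg adjustment over all genes and a threshold of 0.05. The fit was tested on simulated data. Folds are written as lower bounds (at least) for genes whose lower group mean lay in the dimmest 40% of its group. Motifs were searched in RefSeq windows (GRCm38.p6).

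Named genes were, per comparison and subunit, those with the smallest p and the largest changes. Also named were the listed iron-sulfur proteins, the Mrps18 paralogs, Mrps30, Mrps12, Mrpl11, Mrpl12, the brightest and dimmest genes, and those with the largest Knockout SD. From the other lists, the smallest p were taken. The remaining genes past the threshold, Slc5a3 and Ndufs8 were named after their values were seen. The genes, lists and tests were chosen with earlier results of these data known. Alternatives were other scalings, probe-set rules, fits and samples left out.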

Additional observations from a re-analysis of the deposited data

How the results depend on the processing

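Knockout minus Control kept a negative median over the 76 genes in all 20 alternatives, from -0.60 to -0.20, whereas the counts moved. The number lower, 17, was 10 after quantile normalization, 35 after median centring, 8 with only both compared groups fitted, and 4 to 26 with 1 array left out. Keeping Knockout replicate 3 alone in its group, chosen after seeing the data, gave 33. The number higher, 1, was 0 after median centring, with an intensity trend and robust spread, with the fibroblast mean as a covariate (chosen after seeing the data) and with the sole Knockout array, and 0 to 1 with 1 array left out. The fibroblast covariate called 18 genes, all lower (23.7%, against 5.99% of all genes), of which 6 were among the 18 called without it. Fibroblast genes stood at 3.66, 2.91 and 0.30 in Knockout replicates 1 to 3, so this fit leans on replicate 3. Its counts, here and for Rescue minus Knockout, support nothing by themselves. Large minus small subunit ranged from 0.026 to 0.082 with 1 array left out. In Rescue minus Knockout, the number higher was 2 in the main fit. It was 1 with the mean of a gene's probe sets, without _x_at and _s_at sets and with the trend (against 0.951% to 1.29% of all genes). It was 7 with array weights (against 5.91%), 0 with only both groups and 10 with the fibroblast covariate (against 2.65%). With 1 array left out it was 0 to 7, and the 7 stood against 6.61% of all genes. Array weights called 1 gene lower (1.32%, against 7.57% of all genes) and gave a median of 0.17. Medians were 0.29 to 0.51 with 1 array left out and 0.59 with Knockout replicate 3 alone. Large minus small subunit there ranged from -0.055 to 0.025, turning positive without Knockout replicate 3. In Rescue minus Control the median ranged from -0.11 to 0.015, with 0.0095 without Control replicate 2 and 0.015 without Rescue replicate 1, and large minus small subunit from -0.00053 (without Control replicate 2) to 0.071. Genes near 0 changed sign. In Knockout minus Control, Mrpl21 was 0.053 (quantile), 0.25 (array weights), 0.069 and 0.14 (without Control 2 or Knockout 3). Mrpl33 was -0.048 (median centring), -0.065 (without Knockout 2), -0.16 (fibroblast covariate) and -0.17 (sole Knockout array). Mrpl40 was 0.076 (quantile), 0.058, 0.0095 and 0.18 (without Control 2, Control 3 or Knockout 1), 0.38 (fibroblast covariate) and 0.32 (sole Knockout array). Mrps18b was 0.13 (array weights) and 0.013 (without Control 2), with a low of -0.25 without Knockout 2, and Mrps33 was 0.013 (quantile). Mrpl13 was 0.013 (quantile), 0.22 (array weights), 0.038 and 0.25 (without Control 2 or Knockout 3). Mrpl3 was 0.073 (array weights) and 0.052 (without Knockout 3), with a low of -0.50 without Knockout 2. Mrpl38 was 0.0044 without _x_at and _s_at sets and Mrps5 0.0066 with array weights. In Rescue minus Knockout, Mrpl33 was 0.037 (median centring), 0.077 (without Knockout 2) and 0.12 (fibroblast covariate), and Mrpl39 was -0.12 (array weights), -0.0051 and -0.043 (without Knockout 3 or Rescue 3), with a high of 0.34 without Rescue 1. Mrpl40 was 0.0038 (median centring) and 0.11 (without Knockout 3), with a low of -0.24 without Knockout 1, and Mrps5 was -0.079 (array weights). The cause was not tested in these cases. With the replicate number as a block, 16 genes were lower in Knockout minus Control (21.1%, against 8.57% of all genes). In Rescue minus Knockout 0 were higher (against 0.835%). Deviations of same-numbered arrays correlated from -0.22 to 0.40, and those of differently numbered arrays from -0.29 to 0.36. These ranges overlap, so they do not settle whether the numbers pair the samples. The number of arrays, 3 per group, limits what passes.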

Other observations

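Probe sets left out of the 76 genes because they carry a second symbol gave 4 further readings. The set shared by Gm6238 and Mrpl30 read 11.29, 11.34 and 10.76 in Knockout and 11.42, 11.50 and 11.49 in Control, a change of -0.34 that did not pass (limma adjusted p = 0.20). The set shared by Ccdc142 and Mrpl53 changed by -0.33 (limma adjusted p = 0.23). The set shared by Nme3 and Mrps34 read 7.56, 7.29 and 7.39 in Knockout and 8.29, 8.48 and 8.33 in Control, and fell by 0.95 ± 0.14 (limma adjusted p = 0.0050, over all probe sets). A dim second set for Gm6238 and Mrpl30 changed by -0.08.

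Several probe sets read 42 of the 76 genes. For 27 of these the second-brightest set was also above the dimmest 40% of genes. In Knockout minus Control both sets had negative changes for 26 of the 27, opposite signs occurred in 0, and the median absolute difference between the sets was 0.08 on the log2 scale.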
